A study of Homo sapiens with 15 samples.

Results

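The genes followed across the series are 10 coagulation and fibrinogen genes of the liver: *FGA*, *FGB* and *FGG*, *F2*, *F5*, *F7*, *F10*, *F12*, *SERPINC1* and *PLG*. They were taken by symbol, and each matched 1 row, so 10 of the 41412 rows of the count matrix were used. HepG2 is an established human hepatocellular carcinoma line that makes many liver plasma proteins. The labels list its genotype as WT, and it stands here for hepatocytes as 1 tumour-derived line, with no primary hepatocytes beside it. RNA was sequenced from 5 groups of 3 biological replicates, all harvested at 48 h. The untransfected group served as the control. Into the cells of the remaining 4 groups, 1 µg of mRNA for eGFP, a green fluorescent reporter, was transfected with the NanoLNP reagent. The non-cloaked group had mRNA for which the labels list no treatment with the reagent CR-3. In the weak-cloaked group it had been treated with 0.1 M CR-3 for 0.5 h at 25 °C, in the medium-cloaked group with 0.5 M for 1 h at 30 °C, and in the strong-cloaked group with 1 M for 2 h at 37 °C. The labels describe no group given the NanoLNP reagent without mRNA, so the effects of reagent and mRNA cannot be told apart in any comparison with untransfected cells. The 3 CR-3 grades differ in concentration, time and temperature together.

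Blood clotting is a chain of protease activations that ends when thrombin cuts fibrinogen into fibrin. Fibrinogen is built in hepatocytes from an alpha, a beta and a gamma chain, encoded by *FGA*, *FGB* and *FGG*, and its genes are classical targets of the IL-6 acute-phase response. Prothrombin (*F2*) and factors VII and X (*F7*, *F10*) need vitamin K for their carboxylation, factor V (*F5*) is the cofactor of activated factor X, and factor XII (*F12*) starts the contact pathway. Antithrombin (*SERPINC1*) inhibits thrombin and activated factor X, and plasminogen (*PLG*) is the precursor of plasmin, which dissolves fibrin. Messenger RNA was measured here, not the secreted proteins or clotting.

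The fibrinogen genes lie together on chromosome 4 of GRCh38 within 50 kb: *FGB* at chr4:154562956-154571086 on the plus strand, *FGA* at chr4:154583126-154590766 and *FGG* at chr4:154604134-154612967, both on the minus strand. Their promoters are shown because the levels of these neighbouring transcripts are compared with each other below. Each runs from 250 bases before to 50 bases after the start site, 5′ to 3′ on the gene's own strand, from RefSeq on GRCh38.p14. The windows are chr4:154590693-154590992 for *FGA*, chr4:154562730-154563029 for *FGB* and chr4:154612607-154612906 for *FGG*. Capitals mark matches on either strand to a core of the C/EBP site (TTNNGCAA) or of the IL-6 response element (CTGGGA).

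FGA: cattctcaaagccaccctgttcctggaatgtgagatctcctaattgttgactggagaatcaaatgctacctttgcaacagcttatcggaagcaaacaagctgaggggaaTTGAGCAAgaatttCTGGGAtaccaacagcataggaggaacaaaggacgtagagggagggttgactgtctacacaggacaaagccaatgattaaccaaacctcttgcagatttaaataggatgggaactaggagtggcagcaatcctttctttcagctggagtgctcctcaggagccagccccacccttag

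FGB: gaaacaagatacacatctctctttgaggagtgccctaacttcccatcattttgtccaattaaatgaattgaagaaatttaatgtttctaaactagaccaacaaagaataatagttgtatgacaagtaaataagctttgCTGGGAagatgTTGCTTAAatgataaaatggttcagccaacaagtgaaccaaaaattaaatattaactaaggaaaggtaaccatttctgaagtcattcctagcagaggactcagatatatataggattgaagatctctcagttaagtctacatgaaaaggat

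FGG: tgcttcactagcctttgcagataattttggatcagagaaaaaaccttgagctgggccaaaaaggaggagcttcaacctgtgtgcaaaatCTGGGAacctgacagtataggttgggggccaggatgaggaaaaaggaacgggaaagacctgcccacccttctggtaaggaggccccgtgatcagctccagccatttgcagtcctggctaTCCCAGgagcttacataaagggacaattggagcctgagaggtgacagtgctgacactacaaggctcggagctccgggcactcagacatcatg

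The *FGA* and *FGB* windows each held 1 match to both motifs. Counted from the start site, the C/EBP core lay at -141 to -134 in *FGA* and at -101 to -94 in *FGB*, and the IL-6 core at -127 to -122 and -112 to -107. The *FGG* window held 2 IL-6 cores, at -161 to -156 and -42 to -37, and these were its only matches among the 4 motifs searched. No printed match overlapped another. Such short letters are common: among 35116 promoter windows of the same length, 10.5% held TTNNGCAA and 33.3% CTGGGA. Promoters were matched for 9 of the 10 genes, all but *SERPINC1*. CTGGGA was also found in *F2*, *F5*, *F10* and *PLG*, and the HNF4 core CAAAGT (11.9% of windows) in the neighbouring genes *F7* and *F10*. The TATA letters TATAAA (11.5% of windows) were in none of the 9. A match is a run of letters, not a shown binding site.

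The 15 libraries held 57128519 to 78548789 counts, and 18380 genes passed the filter on low counts, all 10 members included. Levels are given as CPM, read counts scaled to library size after TMM normalisation, which sets library sizes so that most genes do not differ. The TMM factors were 1.13 to 1.15 in the untransfected libraries, 1.11 in weak-cloaked replicate 1 and 0.92 to 1.03 in the other 11 transfected libraries. Weak-cloaked replicate 1 was unlike the other libraries of its group, at -36.1 on the first principal component (28.2% of the variance), near the untransfected libraries (-51.8 to -46.4) and away from the other transfected ones (-3.99 to 33.5). It also had the lowest total. Results that rest on it are given with and without it. All 10 hepatocyte markers were detected, with a summed level of 18680 to 25574 CPM per library. In transfected cells *APOA1* and *SERPINA1* of these rose and *APOB* and *HNF4A* fell (40% at an edgeR adjusted p below 0.05, beside 23.1% of all tested genes). With libraries scaled to total counts 0 rose and 3 fell. Without untransfected replicate 1, 0 rose and 2 fell, without replicate 2, 0 and 1, and without replicate 3, 1 and 1. Of the 7 platelet markers, *PPBP* and *GP9* were at 0 in every library, and the list summed to 3.90 to 8.10 CPM. Most of that sum was *ITGA2B*, which rose in transfected cells (log2 fold change 0.56 ± 0.13; edgeR adjusted p = 0.00983). It was the only one of 3 tested platelet markers that passed (33.3%, beside 23.1% of all tested genes). No platelet marker passed with libraries scaled to total counts or without untransfected replicate 3. In bulk RNA, fewer cells making a transcript and less of it per cell cannot be told apart.

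Per unit length, prothrombin, fibrinogen alpha and fibrinogen gamma were the leading transcripts of the set in untransfected cells. Levels between genes were compared as TPM, reads per length of the longest annotated transcript scaled to the same total in every library. They were 566 ± 28.7 for *F2*, 455 ± 90.8 for *FGA*, 284 ± 80.1 for *FGG*, 163 ± 9.66 for *F10* and 105 ± 23.3 for *FGB* (SD, n = 3). The remaining genes were lower, with 58.4 ± 2.86 TPM for *SERPINC1*, 22.2 ± 5.99 for *F5*, 9.69 ± 1.04 for *F7* and 4.26 ± 0.649 for *F12*. Plasminogen was barely detected, at 0.180 ± 0.0371 TPM. In this order, *F2* and *FGA* overlapped within 1 SD of their means and *FGA* and *FGG* nearly met, while the other neighbours were farther apart than their SDs. *FGA* has several isoforms, so its length, and with it its place, is uncertain.

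**Figure D1:**
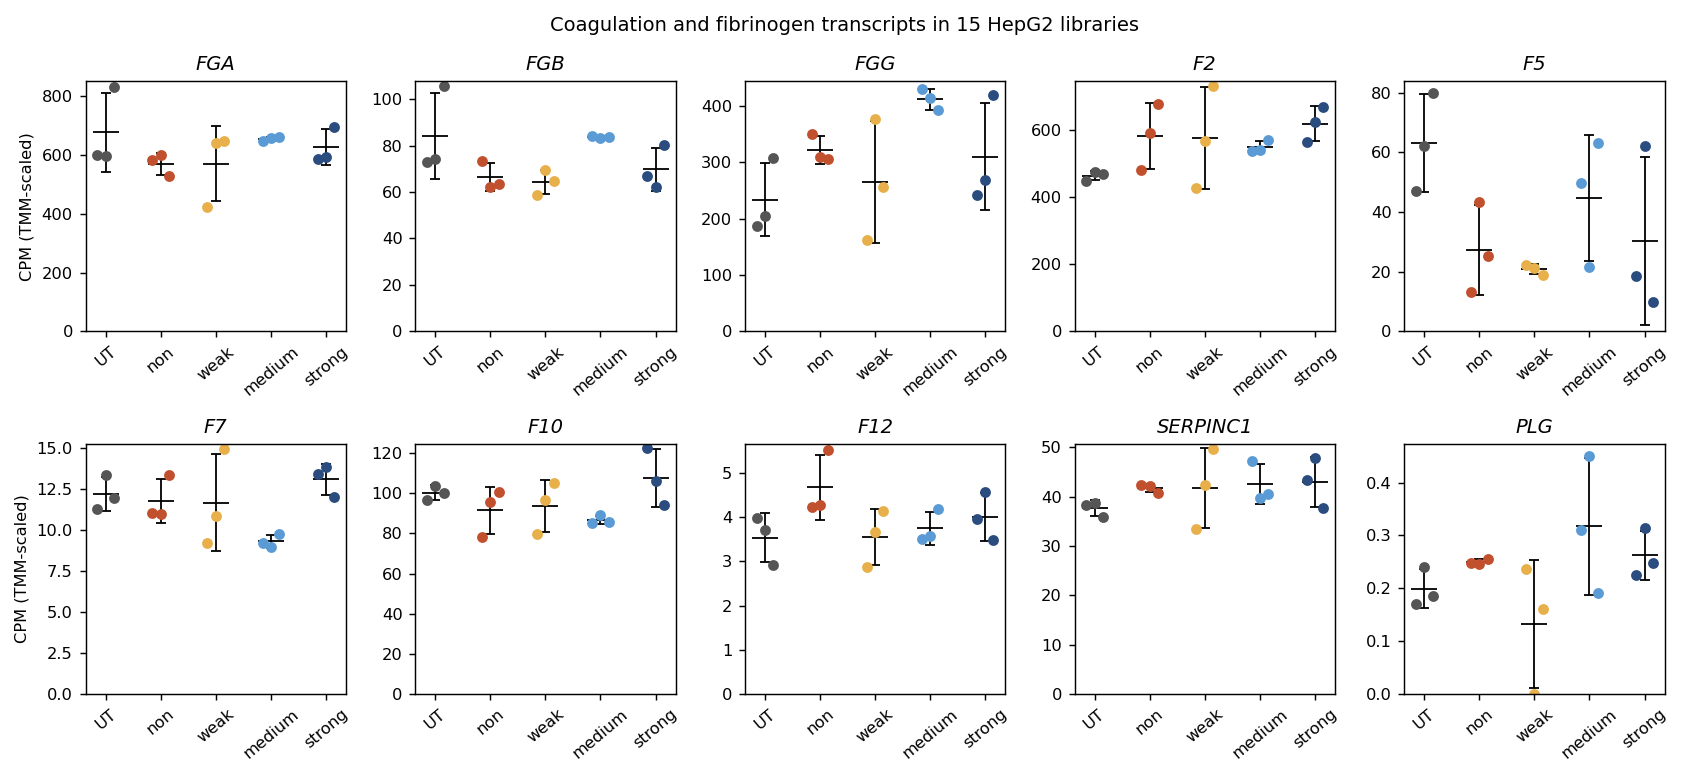
Each panel plots 1 gene, with TMM-scaled CPM on a linear axis from 0 and the 5 groups along the bottom (UT, untransfected). Points are libraries, in replicate order, and black marks are the mean with its SD over 3 libraries. The *F5* points of the strong-cloaked group spread from 9.68 to 62.2 CPM, while the medium-cloaked *FGB* points sit between 83.3 and 84.3.

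None of the 10 genes was called when the transfected groups, averaged over all 4, were set against untransfected cells with edgeR's quasi-likelihood test at a Benjamini-Hochberg adjusted p below 0.05 over all genes. In the same fit 23.1% of the 18380 tested genes were called, 10.4% higher and 12.7% lower. Unadjusted, 3 of the 10 (*FGB*, *F2* and *F5*) had p below 0.05, against 36.7% of all genes, and DESeq2 called 1 of the 10, *F5*, against 18.9% of the genes to which it gave a p. The lowest adjusted p of the set was 0.0928. Of the 10 log2 fold changes 5 were above 0 and 5 below, with a median of 0.040, beside a median of -0.053 over all tested genes. For none of the 10 did the 12 transfected libraries lie wholly above or below the 3 untransfected ones, which 10.9% of all tested genes did. For the smaller counts out of 12 given below, no share over all genes was computed. The group comparisons with untransfected cells gave the same count: 0 of 10 in the non-cloaked (6.5% of all genes called), weak-cloaked (3.29%), medium-cloaked (13.7%) and strong-cloaked (15.1%) groups. In that order, 1, 2, 2 and 1 of the 10 had an unadjusted p below 0.05, against 27.5%, 22.6%, 29.8% and 31.8% of all genes. DESeq2 called 0, 1 (*F5*), 1 (*FGG*) and 0 of the 10, against 10.7%, 7.14%, 13.7% and 15.1% of the genes to which it gave a p. These comparisons share the same 3 untransfected libraries, so they are not independent of each other.

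Of the ratios between fibrinogen chains, those with *FGG* differed between transfected and untransfected libraries, while that of *FGB* to *FGA* overlapped. *FGG* counts were high relative to *FGA* in all 12 transfected libraries, as for 10% of the other tested genes, and relative to *FGB* in 11 of 12. No chain on its own passed the test. *FGA*, the alpha chain, was at 602, 597 and 832 CPM in untransfected cells, 583, 599 and 529 in non-cloaked, 425, 640.4 and 649 in weak-cloaked, 648, 659.5 and 661 in medium-cloaked and 589, 593 and 698 in strong-cloaked cells. Untransfected replicate 3 was the highest library and weak-cloaked replicate 1 the lowest, and the groups overlapped. In the 4 transfected groups together its log2 fold change was -0.16 ± 0.13 (SE; 95% interval -0.44 to 0.11; edgeR adjusted p = 0.386). Without untransfected replicate 3 it was 0.0064, so the sign rested on that library.

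*FGB*, the beta chain, read 73.0, 74.0 and 105 CPM in untransfected, 73.4, 62.3 and 63.7 in non-cloaked, 58.8, 69.4 and 64.7 in weak-cloaked, 84.3, 83.3 and 83.5 in medium-cloaked and 67.0, 62.2 and 80.2 in strong-cloaked cells. Again untransfected replicate 3 was highest, and 7 of 12 transfected libraries lay below all 3 untransfected ones. This gave a log2 fold change of -0.25 ± 0.11 (95% interval -0.50 to -0.0050; edgeR adjusted p = 0.129), and -0.062 without untransfected replicate 3. *FGG*, the gamma chain, read 187, 205 and 307 CPM in untransfected, 349.9, 309.5 and 306 in non-cloaked, 162, 377 and 255 in weak-cloaked, 429, 414 and 392 in medium-cloaked and 242, 269 and 418 in strong-cloaked cells. Of the 12 transfected libraries 7 lay above all untransfected ones and 1, weak-cloaked replicate 1, below. Its log2 fold change was 0.47 ± 0.23 (95% interval -0.017 to 0.96; edgeR adjusted p = 0.15), 0.53 without weak-cloaked replicate 1 (adjusted p = 0.0519) and 0.72 without untransfected replicate 3 (adjusted p = 0.0847). Leaving out any 1 library, it ran from 0.33 to 0.72. The medium-cloaked group alone differed from untransfected cells by 0.82 ± 0.28 (95% interval 0.22 to 1.42; edgeR adjusted p = 0.0671), with its 3 libraries above the untransfected ones, as for 19.2% of all tested genes. Leaving out untransfected replicate 3, weak-cloaked replicate 1 or weak-cloaked replicate 2 brought this value past the threshold.

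A ratio of counts within a library does not depend on library scaling. The number of *FGG* reads per *FGA* read was 0.310, 0.344 and 0.369 in untransfected cells, against 0.600, 0.517 and 0.580 in non-cloaked, 0.382, 0.589 and 0.393 in weak-cloaked, 0.662, 0.628 and 0.594 in medium-cloaked and 0.411, 0.453 and 0.600 in strong-cloaked cells. All 12 transfected libraries were above all 3 untransfected ones. Set against *FGA* in the same way, 10% of the other tested genes had a ratio that was higher in all 12, and 10.5% one that separated the groups in either direction. The means were 0.534 ± 0.0989 (SD, n = 12) and 0.341 ± 0.0297 (SD, n = 3), a log2 difference of 0.63, or 0.67 without weak-cloaked replicate 1. Leaving out any 1 library kept this difference between 0.56 and 0.69. An exact two-sided permutation test gave p = 0.0022, the smallest that the 455 splits of 15 libraries allow (0.0066 adjusted over 3 ratios). The ratios were chosen after the counts had been seen, so this p describes these libraries, is not independent evidence and does not set *FGG* apart from those other genes.

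The ratio of *FGG* to *FGB* reads moved with it, at 2.75 ± 0.179 in untransfected and 4.55 ± 0.77 in transfected libraries. It lay above all untransfected libraries in 11 of 12, with weak-cloaked replicate 1 (2.76) the exception (exact permutation p = 0.0066, adjusted 0.0099). This ratio was also chosen after the counts had been seen and shares *FGG* with the first, so its p is not independent evidence. No share over all genes was computed for it. The ratio of *FGB* to *FGA* was 0.124 ± 0.00277 and 0.118 ± 0.012 (exact permutation p = 0.39). Per unit length, *FGG* stood at 0.618 ± 0.0537 of *FGA* in untransfected cells and at 1.02 ± 0.0787 in the non-cloaked, 0.824 ± 0.211 in the weak-cloaked, 1.14 ± 0.0622 in the medium-cloaked and 0.883 ± 0.18 in the strong-cloaked group. In a fit with offsets for transcript length and GC content, added after the data were seen, *FGG* had a log2 fold change of 0.69 and *FGA* of 0.033.

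**Figure D2:**
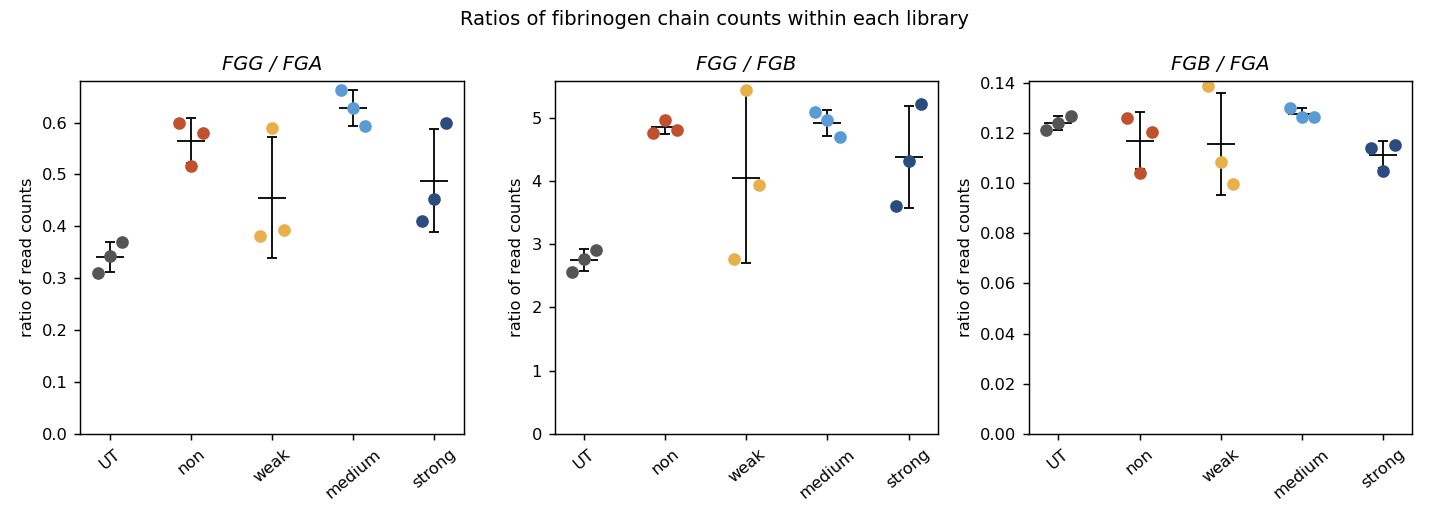
Each panel plots the ratio of read counts of 2 fibrinogen chains within a library (linear axis from 0), by group (UT, untransfected). Points are libraries and black marks the mean with its SD over 3. The *FGG* to *FGA* ratio is 0.310 to 0.369 in untransfected and 0.382 to 0.662 in transfected libraries, while the *FGB* to *FGA* ratio overlaps between them.

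Within groups the 3 chains nevertheless varied together. Over 15 libraries, after removal of group means, Pearson's r of log2 CPM was 0.781 for *FGA* with *FGB*, 0.873 for *FGA* with *FGG* and 0.813 for *FGB* with *FGG*. With the group means left in, these were 0.807, 0.579 and 0.499. The points share library scaling, so the values are a description. Likeness over the 15 libraries was taken to the mean log2 CPM of the chains, each first scaled to the same mean and spread. Among non-member genes with a mean log2 CPM of 1 or more, the nearest were *MAOA* (r = 0.895), *HP*, which encodes the acute-phase protein haptoglobin (0.849), *SIAE* (0.84), *GLUD1* (0.834) and *GPD1L* (0.833).

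Among the procoagulant factors, prothrombin in TMM-scaled CPM stood slightly above untransfected cells in nearly every transfected library, and factor V varied most. *F2* (chr11:46719180-46739506, plus strand) was at 449, 475 and 467 CPM in untransfected, 479.5, 592 and 675 in non-cloaked, 426, 567 and 729.5 in weak-cloaked, 536, 539 and 568 in medium-cloaked and 563, 623 and 666 in strong-cloaked cells. All transfected libraries but weak-cloaked replicate 1 exceeded the 3 untransfected ones, 11 of 12, a count for which no share over all genes was computed. Its log2 fold change was 0.32 ± 0.13 (95% interval 0.036 to 0.61; edgeR adjusted p = 0.0965). Without weak-cloaked replicate 1 it was 0.36 ± 0.098 and passed the test (edgeR adjusted p = 0.0136), as did 5938 of the 18823 genes tested in that fit. With libraries scaled to total counts the change of *F2* was 0.090 (edgeR adjusted p = 0.523).

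*F5* (chr1:169514166-169586588, minus strand) read 47.0, 62.2 and 80.0 CPM in untransfected, 13.2, 43.3 and 25.1 in non-cloaked, 22.2, 21.3 and 18.9 in weak-cloaked, 49.8, 21.6 and 62.9 in medium-cloaked and 18.6, 62.2 and 9.68 in strong-cloaked cells. Of the 12 transfected libraries 9 were below all 3 untransfected ones, and the other 3 lay among them. The largest and smallest strong-cloaked libraries differed by 6.43-fold. A spread of 4-fold or more in at least 1 group was found for 9.01% of 12057 genes whose mean log2 CPM was 1 or more. For the 4 groups together the log2 fold change was -1.09 ± 0.44 (95% interval -2.05 to -0.13; edgeR adjusted p = 0.0928). Leaving out any 1 library, it ran from -1.37 to -0.89. The value of -1.37 (edgeR adjusted p = 0.0152) came without strong-cloaked replicate 2, one of the 3 libraries that lay among the untransfected ones. Over all settings tried, the edgeR or DESeq2 adjusted p of *F5* ran from 0.0152 to 0.297.

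*F7* and *F10* sit side by side on chromosome 13 of GRCh38, at chr13:113105788-113120681 and chr13:113122814-113149529, with 2132 nt between them. *F7*, whose product pairs with tissue factor, read 11.3, 13.3 and 11.9 CPM in untransfected, 11.03, 10.99 and 13.3 in non-cloaked, 9.21, 10.8 and 14.9 in weak-cloaked, 9.19, 8.97 and 9.75 in medium-cloaked and 13.4, 13.8 and 12.02 in strong-cloaked cells. *F10* read 96.5, 104 and 100.2 CPM, then 78.3, 95.6 and 100.5, 79.6, 96.5 and 105, 85.4, 89.0 and 85.6, and 123, 106 and 94.0 CPM in the same order of groups. In both genes the transfected libraries lay on either side of the untransfected ones. Their log2 fold changes were -0.10 ± 0.14 (95% interval -0.40 to 0.20) and -0.084 ± 0.10 (95% interval -0.31 to 0.14). In 2 other scalings *F10* was called lower. Its change was -0.31 with total counts (edgeR adjusted p = 0.017), where 23.7% of all tested genes were called lower. With the length and GC offsets it was -0.37 (edgeR adjusted p = 0.004), where 4434 of 18303 genes were called in either direction. All 3 medium-cloaked libraries were below all untransfected ones in both genes, as for 22.3% of all tested genes, with log2 fold changes of -0.39 ± 0.18 for *F7* and -0.21 ± 0.13 for *F10* (edgeR adjusted p = 0.157 and 0.314). Over 15 libraries *F7* and *F10* varied together (r = 0.785, and 0.717 within groups). Within groups this was not particular to the neighbours. There *F7* had an r of 0.802 with *F2*, 0.725 with *F12* and 0.713 with *SERPINC1*, all on other chromosomes. With the group means left in, these 3 were 0.489, 0.456 and 0.364. *F10* shares its locus with antisense transcripts, and the counting's strand setting is unknown here, so its level is less certain.

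*F12* (chr5:177402140-177409576, minus strand) was low, at 3.99, 3.72 and 2.92 CPM in untransfected, 4.22, 4.27 and 5.53 in non-cloaked, 2.88, 3.68 and 4.13 in weak-cloaked, 3.50, 3.58 and 4.18 in medium-cloaked and 3.96, 4.57 and 3.47 in strong-cloaked cells. The non-cloaked libraries were all above the untransfected ones, as for 16.6% of all tested genes, and the cloaked groups overlapped them. Over the 4 transfected groups the log2 fold change was 0.17 ± 0.16 (95% interval -0.18 to 0.52), and its sign turned under total-count scaling (-0.064). *F12* overlaps *GRK6* on the opposite strand, which leaves its counts uncertain in the same way.

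*SERPINC1*, the antithrombin gene (chr1:173903804-173917378, minus strand), read 38.3, 38.8 and 35.9 CPM in untransfected, 42.4, 42.1 and 40.7 in non-cloaked, 33.4, 42.3 and 49.6 in weak-cloaked, 47.2, 39.8 and 40.5 in medium-cloaked and 43.4, 47.8 and 37.6 in strong-cloaked cells. In TMM-scaled CPM 10 of the 12 transfected libraries exceeded all untransfected ones, with a log2 fold change of 0.16 ± 0.11 (95% interval -0.081 to 0.41, edgeR adjusted p = 0.323). With libraries scaled to total counts this change turned to -0.065 (edgeR adjusted p = 0.667). *PLG* (chr6:160702238-160753315, plus strand) was counted 14, 21 and 16 times in untransfected, 18, 18 and 15 in non-cloaked, 15, 0 and 11 in weak-cloaked, 23, 33 and 13 in medium-cloaked and 17, 20 and 16 times in strong-cloaked libraries. The count of 0 in weak-cloaked replicate 2 allows up to 3 counts, or 0.0484 CPM, by counting error alone. At this depth its interval ran from -1.13 to 1.54 on the log2 scale, so a change of 2-fold in either direction was not detectable.

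**Figure D3:**
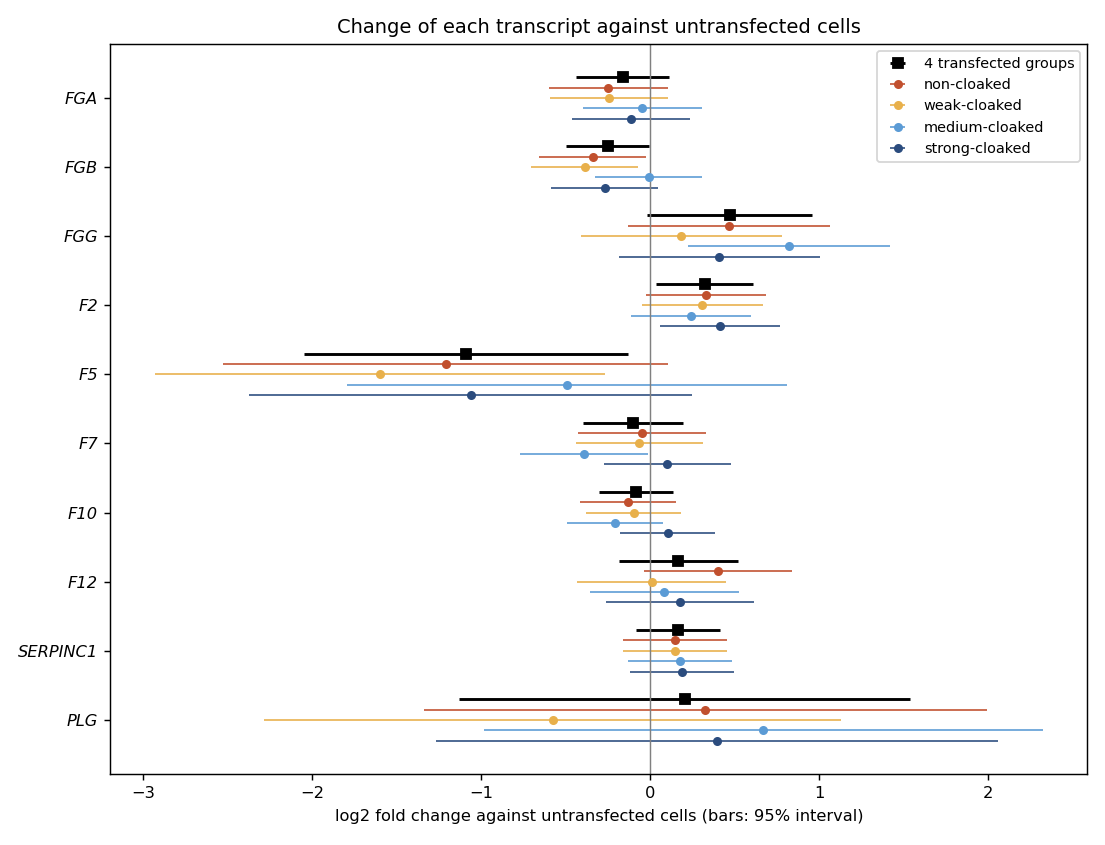
The log2 fold change of each gene against untransfected cells (horizontal axis) is shown for the mean of the 4 transfected groups (squares) and for each transfected group (circles), with 95% intervals from the edgeR fit. The *F5* and *PLG* intervals are the widest, and for the 4 groups together every interval but those of *FGB*, *F2* and *F5* spans 0.

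Cloaking of the mRNA was compared with the non-cloaked mRNA in each grade. None of the 10 genes was called by edgeR in the weak-cloaked (0.00544% of all genes called), medium-cloaked (0%) or strong-cloaked (0%) group, or by the F test, which asks whether the 4 transfected groups differ in any way (0.00544%). Unadjusted p was below 0.05 for 0, 1, 0 and 0 of the 10, against 3.92%, 9.5%, 3.61% and 4.1% of all genes, so the members' share was near the background. DESeq2 called 0 of the 10 in all 4, against 0.0699%, 0.257%, 0.0552% and 0.192% of the genes to which it gave a p. The 1 gene was *FGB*, with a log2 difference of 0.33 ± 0.15 in the medium-cloaked group (95% interval 0.015 to 0.65; edgeR adjusted p = 0.511), where all 3 libraries exceeded the non-cloaked ones, as did 10.9% of all tested genes. For *FGG* the medium-cloaked difference was 0.36 ± 0.28 (95% interval -0.24 to 0.95), the weak-cloaked one -0.28 ± 0.28 (-0.88 to 0.32) and the strong-cloaked one -0.056 ± 0.28 (-0.65 to 0.54). For prothrombin the 3 differences were between -0.087 and 0.085, with intervals that reached from -0.44 to 0.44. These intervals leave room for changes of about that size, so the grades are not shown to act alike. For factor V they were far wider, from -1.69 to 0.92 in the weak-cloaked, -0.59 to 2.02 in the medium-cloaked and -1.15 to 1.45 in the strong-cloaked group.

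Related genes were read from lists that were picked with earlier results of these data known. Of 8 fibrinolysis genes tested 3 rose in the 4 transfected groups and none fell (37.5% called, beside 23.1% of all genes). The median log2 fold change of the 8 was 0.68, beside -0.053 over all genes. *PLAUR*, the urokinase receptor, rose by 1.13 ± 0.24 on the log2 scale (edgeR adjusted p = 0.00665), *S100A10*, a plasminogen-binding partner of annexin A2, by 0.70 ± 0.10 (0.00101) and *CPB2*, whose product protects fibrin from lysis, by 0.66 ± 0.13 (0.00433). As background, *CPB2* restrains fibrinolysis, while *PLAUR* and *S100A10* promote it. Under total-count scaling and under the offsets these 3 were again called higher, and *SERPINF2*, the plasmin inhibitor, was called lower (edgeR adjusted p = 0.00686 and 0.0113).

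Of 9 other coagulation factors 2 fell and none rose (22.2% called, beside 23.1% of all genes): *VWF* by 1.24 ± 0.30 (edgeR adjusted p = 0.0108, and 0.067 without untransfected replicate 2), from 1.25 CPM in untransfected cells, and *KNG1*, the kininogen of the contact system, by 0.74 ± 0.15 (0.00458). *VWF* is chiefly an endothelial gene. Among 6 tested endothelial markers 1 rose (*ESAM*) and *VWF* was the 1 that fell (33.3% called, beside 23.1% of all genes). The summed level of all 7 was 8.95 to 10.2 CPM in untransfected and 10.1 to 19.0 in transfected libraries. Their part in the result was not tested. The direction of the list's calls depended on the setting: 4 of the 9 fell under total-count scaling, and under the length and GC offsets 2 fell and 2 rose (*LMAN1* and *MCFD2*, edgeR adjusted p = 0.0173 and 0.00838). Of 14 anticoagulants and inhibitors 2 rose and none fell (14.3% called, beside 23.1% of all genes), *SERPINA1* by 0.46 ± 0.12 (0.0174) and *SERPINA5* by 0.35 ± 0.11 (0.0375). Under total-count scaling neither passed (edgeR adjusted p = 0.0598 and 0.283) and 3 others fell (*PROC*, *PROZ* and *A2M*), under the offsets 2 rose and 2 fell, and 0 of the 14 were called without untransfected replicate 1 or 2.

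Among the 5 genes of the vitamin K cycle 40% were called, beside 23.1% of all genes. *NQO1* rose by 0.54 ± 0.075 (edgeR adjusted p = 0.000826). *VKORC1L1* fell by 0.38 ± 0.087 (edgeR adjusted p = 0.00902, and 0.0642 without untransfected replicate 3), and under the offsets its change was -0.12 (0.33). Of 9 genes in a mixed list around fibrinogen and the contact phase (*FGL1*, *HGFAC*, *HABP2*, *F2R*, *F2RL1* and *ITIH1* to *ITIH4*) 33.3% were called, beside 23.1% of all genes. The fibrinogen-like gene *FGL1* was not among the called ones (edgeR adjusted p = 0.305). *HGFAC*, an activator of hepatocyte growth factor, rose by 0.57 ± 0.16 (edgeR adjusted p = 0.0235). The protease-activated receptor *F2RL1* rose by 0.51 ± 0.13 (edgeR adjusted p = 0.0123) and *ITIH3* fell by 0.31 ± 0.10 (0.043). None of the 9 was called without untransfected replicate 1, and *HGFAC* and *F2RL1* were not called under total-count scaling. Of 16 liver transcription factors and IL-6 signalling genes 3 rose and 6 fell (56.2% called, beside 23.1% of all genes), with a median of -0.31. Without untransfected replicate 1 or 2, 1 rose and 4 fell. *HNF4A*, a master regulator of hepatocyte genes, was at 252.9 ± 27.5 CPM in untransfected cells and at 131.6 to 182 in the transfected group means (log2 fold change -0.66 ± 0.14; edgeR adjusted p = 0.00535). *CEBPA* (-0.89 ± 0.23, adjusted p = 0.0145), *ONECUT1* (-1.72 ± 0.28, 0.00191) and *IL6ST*, the signalling subunit of the IL-6 receptor (-1.02 ± 0.25, 0.012), also fell, as did *FOXA2* and *IL6R*. *FOXA2* was not called without any 1 untransfected replicate (edgeR adjusted p = 0.0545 to 0.0769), nor *IL6R* without untransfected replicate 2 or 3 (0.0614 and 0.0629). *KLF6* (1.65 ± 0.30, 0.00349), *CEBPB* and *STAT3* rose. *HNF4A*, *ONECUT1* and *KLF6* were called under all 3 other scalings and without weak-cloaked replicate 1 or any 1 untransfected replicate. *CEBPA* was not called without untransfected replicate 1 (edgeR adjusted p = 0.136), nor *IL6ST* without untransfected replicate 3 (0.106). Under total-count scaling *CEBPB* and *STAT3* were not called (edgeR adjusted p = 0.266 and 0.574). Nor were they without untransfected replicate 1 (0.0724 and 0.121) or 2 (0.0789 and 0.131), and *CEBPB* was also not called under the offsets (0.333). The 10 clotting genes themselves were not called in the same fit. Whether their levels depend on these regulators was not tested. Of 7 genes that flank the fibrinogen or *F7* and *F10* loci, 5 fell and none rose (71.4% called, beside 23.1% of all genes). The count that fell was 3 without any 1 untransfected replicate and under the offsets. Beside fibrinogen, *PLRG1* fell by 0.50 ± 0.16 (edgeR adjusted p = 0.0383; 0.134 and 0.172 without untransfected replicate 1 or 2, and -0.25 with 0.211 under the offsets) and *LRAT* by 1.85 ± 0.46 (0.0128, and 0.404 without untransfected replicate 3), and beside *F7*, *MCF2L* fell by 0.88 ± 0.13 (0.000998). No gene of the 7 lists was called against the non-cloaked group.

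**Figure D4:**
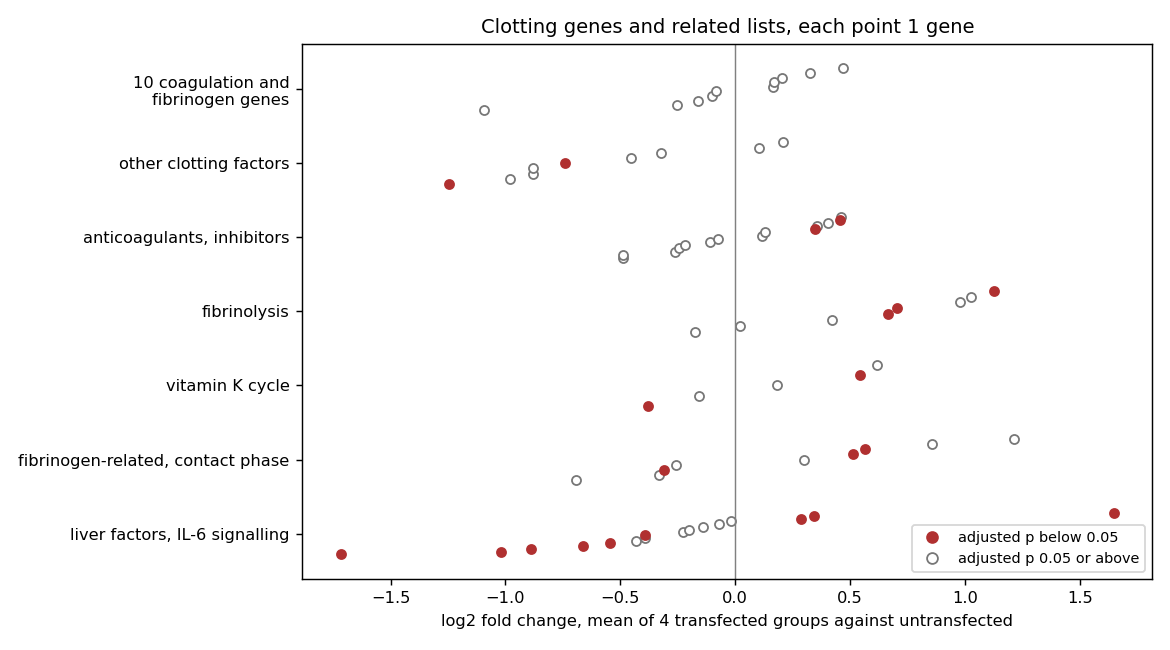
Each point is 1 tested gene, placed by its log2 fold change between the 4 transfected groups, averaged, and untransfected cells; rows are the 10 clotting genes and 6 related lists. Filled points passed the edgeR test at an adjusted p below 0.05. None of the 10 clotting genes is filled, and 3 of 8 fibrinolysis genes are, all above 0, while 23.1% of all tested genes passed.

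The choice of library scaling bears on all these values. Scaled to total counts, the median log2 fold change of all genes shifted by -0.225, and 17.8% of called genes were higher in place of 44.9%. All changes given are thus relative to the typical tested gene. In that scaling 4 of the 10 were called lower in the 4 transfected groups, against 23.7% of all tested genes: *FGA* (log2 fold change -0.39; edgeR adjusted p = 0.0132), *FGB* (-0.48; 0.00805), *F5* (-1.32; 0.0355) and *F10* (-0.31; 0.017).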

How the data were processed

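Raw read counts, deposited by the authors as 1 matrix with gene symbols as rows, covered 15 libraries (poly(A)-selected and strand-specific, per the labels). Per the submitters' processing notes, HISAT2, HTSeq, DESeq2 1.46.0, R 4.4.2 and GRCh38 were used. Not given in the sources used here: the annotation release, the counting's strand setting and how the matrix was filtered. The members, the related gene lists and the tests were chosen with earlier results of these data known. All 10 members are named, and other genes of the lists where called against untransfected cells, up to 4 per list by size of change; further ones were named after their values were seen.

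The counts were fitted with edgeR 4.0.16 in R 4.3.3 (filterByExpr, TMM, robust quasi-likelihood test, 1 mean per group, all 15 libraries) and Benjamini-Hochberg adjustment over 18380 genes. DESeq2 1.42.0 was an alternative. Standard errors came from the fold change and its F statistic. Some genes and a motif of the chosen lists are not reported here and were left out of the lists' counts. Transcript lengths and positions came from GENCODE release 29. The script was tested on simulated data. Sample titles gave the groups and replicate numbers. Replicate pairs differed far beyond sampling noise (chi-square per degree of freedom at least 78.8). The biological coefficient of variation was 0.344, so replicate spread, not depth, limits precision for all but *PLG*. Alternatives were other scalings and filters, a replicate block, only the groups compared, each replicate left out, and length and GC offsets added after the data were seen.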

Additional observations from a re-analysis of the deposited data

How the results depend on the processing

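For genes called, DESeq2 gave 2907 (non-cloaked) and 1942 (weak-cloaked) against untransfected cells where edgeR gave 1195 and 605. Against the non-cloaked group it gave 19 (weak-cloaked), 70 (medium-cloaked) and 15 (strong-cloaked), and 51 in the F test, where edgeR gave 1, 0, 0 and 1. Fitting only the groups compared gave 4 in the weak-cloaked group against untransfected cells, 2 in the strong-cloaked group against the non-cloaked group and 3 in the F test. Length and GC offsets gave 1241 in the weak-cloaked group. The causes were not tested.

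For the 10 members, DESeq2 called 1 in the 4 transfected groups together (*F5*), 1 in the weak-cloaked (*F5*) and 1 in the medium-cloaked group (*FGG*). Total-count scaling called 4 in the 4 groups together, 1 in the non-cloaked (*FGB*), 1 in the weak-cloaked (*FGB*), 2 in the medium-cloaked (*F7* and *F10*) and 1 in the strong-cloaked group (*FGB*). In the same order, that scaling called 5303, 1104, 690, 3036 and 3553 of the 18380 tested genes. Fitting only the groups compared called 2 in the medium-cloaked (*FGG* and *F2*) and 1 in the strong-cloaked group (*F2*). Length and GC offsets called 1 in the 4 groups together (*F10*), 1 in the non-cloaked (*F10*) and 2 in the medium-cloaked group (*FGG* and *F10*). In the 4 groups together the offsets called 4434 of 18303 genes. For the offsets in single groups and the fits of only the groups compared, no share over all genes is set beside the members. The log2 fold change changed sign with total counts for *F12* (-0.064), *SERPINC1* (-0.065) and *PLG* (-0.011), with the offsets for *FGA* (0.033) and *F12* (-0.057), and without untransfected replicate 3 for *FGA* (0.0064). *PLG* did not pass the stricter count filter. The causes were not tested.

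Leaving out 1 replicate at a time, genes called ran from 2148 to 5938 for the 4 groups together, 119 to 3107 for non-cloaked, 114 to 4007 for weak-cloaked, 785 to 3789 for medium-cloaked and 728 to 4191 for strong-cloaked against untransfected cells. The counts against the non-cloaked group ran from 1 to 3, 0 to 2 and 0 to 1, and those of the F test from 1 to 2. Members called ran from 0 to 1 for the 4 groups together, the weak-cloaked, the medium-cloaked and the strong-cloaked group. These were *F2* without weak-cloaked replicate 1, *F5* without strong-cloaked replicate 2, *FGG* in the medium-cloaked group, and *F2* in the strong-cloaked group without weak-cloaked replicate 3. The log2 fold change of *FGA* ran from -0.25 to 0.0064.

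Replicate numbers gave no clear pairing of the libraries. Of 30 same-numbered pairs 2 had a correlation of deviations above 0.1, and of 60 other-numbered pairs 1 did. The median correlations were 0.000143 and 2.96e-05, and 7 of 15 libraries correlated best with their own number. This check does not exclude a pairing. With the replicate block 1 member was called in the 4 groups together (*F2*, edgeR adjusted p = 0.0475) and 1 in the strong-cloaked group (*F2*).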

Other observations

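For *F5*, the genes nearest in level over the 15 libraries, looked up after its values were seen, were *MOK* (Pearson's r = 0.87), *PSTPIP2* (0.752), *AQP9* (0.748), *AMOTL2* (0.745) and *ING5* (0.745). For *FGG* they were *ZNF695* (0.905), *MAG* (0.891), *TMEM50B* (0.883), *ZNF550* (0.878) and *LIN52* (0.874). None of these is a clotting gene. The values are descriptions over 15 libraries that share their scaling.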
